A study of Macaca mulatta with 38 samples.

Results

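The E77 Frontal culture was grown from the frontal cortex of a wild-type fetal rhesus macaque brain at embryonic day 77, and its terminal phase is compared here with its stem phase. The comparison takes the 4 libraries of days 11, 14, 17 and 20 in vitro (terminal) and the 3 libraries of days 1, 3 and 5 (stem), 7 of the 38 libraries of the series, chosen by their day and region labels and not by any measured value. Dissociated cortical neural stem cells were plated on polyornithine and fibronectin at 5% O2 and kept for 5 days in N2 medium with FGF2 added every day. FGF2 was then withdrawn and the medium changed to NeuroBasal with B27, BDNF and NT-3. Days 6, 7 and 8 form a transition phase between both. A pair of further cultures of the same design serves as the comparison: E77 Occipital, from the occipital cortex at the same age, and E42 Anterior, from the anterior cortex at embryonic day 42, which has no library of day 20.

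There was 1 library per day, made from the RNA of 2 wells, so the days stand as replicates, and p-values measure the spread between days, since the labels do not say whether the days came from separate animals. FGF2, the other components of the medium and time in culture changed together and cannot be told apart.

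Radial glia are the stem cells of the developing cortex. They divide to give neurons, directly or through intermediate progenitors, and in primates another population, the outer radial glia, adds many of the late-born neurons. The same cells later turn to making astrocytes and oligodendrocyte precursors. FGF2 holds cultured cortical progenitors in division, and its removal, with BDNF and NT-3 in its place, is the usual way to let them differentiate.

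The 7 libraries held between 21324987 and 33001313 counts assigned to genes, and no pair of them agreed within sampling noise. A principal component analysis of the 10 Frontal libraries placed them in the order of their days along the first component, which carried 58.8% of the variance, so neither phase was a steady state. The transcripts EMX2 and LHX2, which mark dorsal cortical progenitors, were present in every library. GSX2, of ventral forebrain progenitors, and DLX2, of the GABAergic lineage, were also present in all 7 libraries compared. Values are given in the order of days 1, 3 and 5 and then days 11, 14, 17 and 20 throughout, in CPM (counts scaled to a common library size). Globin genes were at 0, and 9 of 11 microglial genes were too low to test.

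Of 20794 genes tested with edgeR's quasi-likelihood test, 4673 (22.5%) rose and 4302 (20.7%) fell from the stem to the terminal phase at a Benjamini-Hochberg adjusted p below 0.05, the only sense in which rose and fell are used of a gene below. At least 2-fold rises were found for 1777 genes and at least 2-fold falls for 2130, whereas beyond 8-fold the rises, 424 genes, outnumbered the falls, 181 genes. Against the stem phase, the transition phase had 1341 higher and 930 lower genes. The terminal phase differed from the transition phase in 2290 higher and 1851 lower genes. The library of day 1 carried most weight: 7098 of the 8975 calls were kept without it, against 8408 without day 11. In RNA from whole wells, fewer cells of a type and less RNA per cell cannot be told apart.

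**Figure D1:**
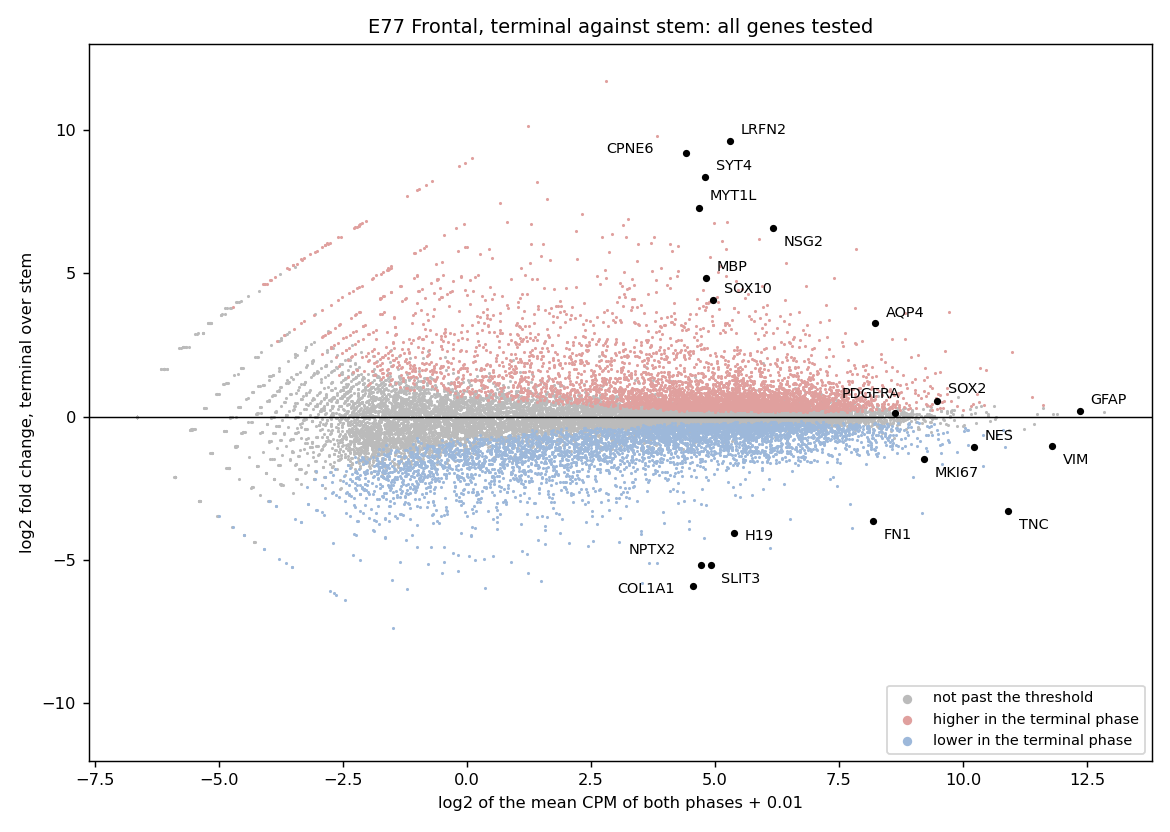
Each point is 1 of the 20794 genes tested. The x axis is the log2 of the mean CPM of both phases plus 0.01 and the y axis the log2 fold change of the terminal over the stem phase. Black points are named genes. Of the named points LRFN2 (9.61) and CPNE6 (9.18) lie highest and COL1A1 (-5.91) lowest, while SOX2, PDGFRA and GFAP lie near 0. The slanted rows of points at the left are genes with few counts.

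More radial glia genes fell than rose. Of 16 tested, 9 fell (56.2%), 3 rose (18.8%) and 4 did not pass. Among all genes tested 20.7% fell and 22.5% rose. The median log2 fold change of the list was -0.62 against 0 for all genes tested. The intermediate filament genes of neural progenitors fell to about the same extent: NES (nestin) was at 1654, 1458 and 1735 CPM in the stem libraries and 775, 762, 752 and 798 CPM in the terminal libraries (log2 fold change -1.07, SE 0.18, edgeR adjusted p = 1.50e-05), and VIM (vimentin) fell 2.05-fold with an edgeR adjusted p of 4.51e-06. For both, every terminal library lay below every stem library. SOX2 and PAX6, transcription factors of progenitors, went the other way. SOX2 was at 555, 523 and 652 CPM in the stem libraries and 785, 823, 855 and 936 CPM in the terminal libraries (log2 fold change 0.56, SE 0.10, edgeR adjusted p = 6.46e-05), and PAX6 rose by a log2 fold change of 0.48 (edgeR adjusted p = 0.00173). The third gene that rose was ID4, which holds progenitors back from differentiation, at 100.1, 124 and 158 CPM in the stem libraries and 314, 364, 437 and 458 CPM in the terminal libraries (log2 fold change 1.62, SE 0.22, edgeR adjusted p = 8.80e-07). In the same list GLI3, the repressor of hedgehog signalling in the dorsal forebrain, fell with a log2 fold change of -1.19 (edgeR adjusted p = 2.02e-05).

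The Notch pathway, through which neighbouring cells keep each other undifferentiated, had 8 of its 16 tested genes fall, and 1, the ligand JAG2, rise (median -0.48). The receptor NOTCH1 was at 1066, 1052 and 1084 CPM in the stem libraries and 517, 406, 432 and 419 CPM in the terminal libraries, a 2.41-fold fall (log2 fold change -1.27, SE 0.16, edgeR adjusted p = 2.81e-07). Its target HES5 was at 36.1, 49.9 and 65.7 CPM in the stem libraries and 11.5, 13.3, 17.5 and 22.8 CPM in the terminal libraries (log2 fold change -1.63, SE 0.39, edgeR adjusted p = 0.00127). HES5 was at its lowest on days 8 and 11 and higher on each later day, without reaching any stem library. The ligand JAG1 fell as well, with a log2 fold change of -1.66 (edgeR adjusted p = 2.67e-05), as did the target HEYL, with -1.84 (edgeR adjusted p = 0.00363).

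Of 9 outer radial glia genes, 5 fell (HOPX, TNC, LIFR, ITGB5 and PTN) and 3 rose (FAM107A, MOXD1 and IL6ST). These are shares of 55.6% and 33.3%, against 20.7% and 22.5% of all genes tested. TNC, the matrix protein tenascin-C of the outer radial glia niche, had the largest fall of the list, from 3809, 2961 and 3695 CPM to 483, 306, 257 and 371 CPM (log2 fold change -3.3, SE 0.39, edgeR adjusted p = 1.40e-07). HOPX was at 654, 386 and 386 CPM in the stem libraries and 235, 251, 219 and 334 CPM in the terminal libraries (log2 fold change -0.87, SE 0.23, edgeR adjusted p = 0.00324); its call rested on day 1, since without that library the log2 fold change was -0.56 (edgeR adjusted p = 0.0837). FAM107A, an actin-binding protein of the same cells, rose 2.66-fold (log2 fold change 1.41, SE 0.40, edgeR adjusted p = 0.00576). Members of the list thus moved in opposite directions, as genes did in general. The library of day 20 had the highest FAM107A, 649 CPM.

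All 18 genes of DNA replication and all 18 of mitosis fell, with median log2 fold changes of -1.05 and -1.1. The falls were graded rather than complete. MKI67, the proliferation marker, was at 802, 839.8 and 974 CPM in the stem libraries and 486, 311, 205 and 240.3 CPM in the terminal libraries (log2 fold change -1.49, SE 0.22, edgeR adjusted p = 4.39e-06). Its lowest terminal library, day 17, still held 205 CPM. The replicative helicase subunit MCM3 was at 128, 98.5 and 105 CPM in the stem libraries and 44.9, 39.7, 35.8 and 34.5 CPM in the terminal libraries (log2 fold change -1.52, SE 0.22, edgeR adjusted p = 2.25e-06). RRM2 (log2 fold change -1.37), CDC6 (-1.39) and TK1 (-1.32), which supply nucleotides or license origins, and the mitotic genes CCNB1 (-1.27) and AURKB (-1.28) fell by similar amounts, each with all terminal libraries below all stem libraries. All 18 replication genes were highest in a stem library of the 10 days, 16 of them on day 1, and 13 of 18 mitotic genes were highest in a stem library.

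The cyclins and CDK inhibitors were mixed. CCND2, CCNE1, CCNE2, CDKN1A and CDKN2C fell (45.5%) and CDKN1B rose (9.09%), against 20.7% and 22.5% of all genes tested. CDKN1B, which encodes p27, an inhibitor that acts at cell cycle exit, was at 68.7, 87 and 104 CPM in the stem libraries and 118, 125, 129.5 and 128 CPM in the terminal libraries (log2 fold change 0.53, SE 0.14, edgeR adjusted p = 0.00218). CDKN1A, the p53 target p21, was at 319.9, 139.9 and 116 CPM in the stem libraries and 94.6, 96.9, 96.6 and 119.5 CPM in the terminal libraries, and its fall was carried by day 1: without that library the log2 fold change was -0.31 (edgeR adjusted p = 0.461). CCND1, the cyclin that growth factors induce, was at 88, 24.3 and 19.8 CPM in the stem libraries and 37.7, 57.7, 93.3 and 126 CPM in the terminal libraries, so that the phases overlapped and it did not pass (edgeR adjusted p = 0.198). Within the terminal phase CCND1 was higher on each later day, and without day 1 it passed, with a log2 fold change of 1.85 (edgeR adjusted p = 0.0135). Without single libraries the count of falls in this list was as low as 2 of 11.

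**Figure D2:**
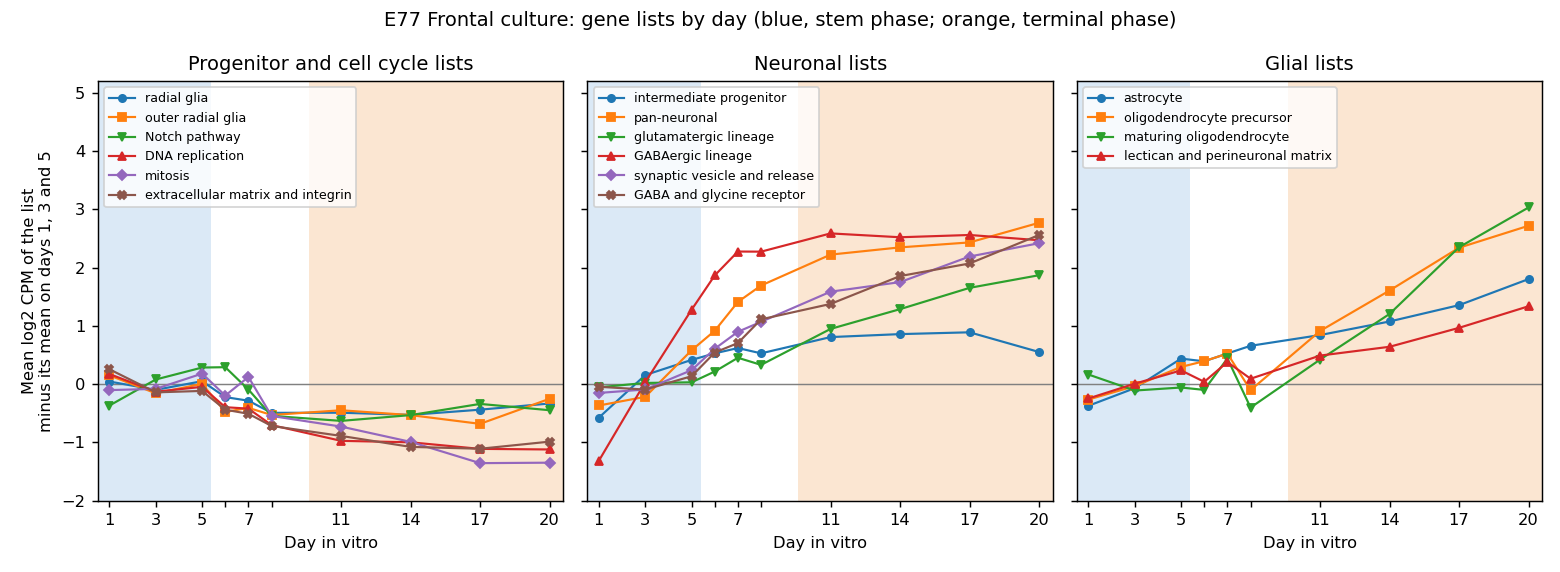
Mean log2 CPM of the tested genes of each list on each of the 10 days, minus the list's mean over days 1, 3 and 5. Replication and mitosis lists stay below 0 from day 8 on. The GABAergic list climbs within the stem phase already and is level from day 11, and both oligodendrocyte lists climb after day 8. Points are single libraries and carry no error.

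Most neuronal genes rose, many of them by far more than progenitor genes fell. Of 14 pan-neuronal genes, 11 rose, with a list median of 2.58, and 1 fell. STMN2, a microtubule regulator of growing axons, was at 1.94, 3.27 and 18.9 CPM in the stem libraries and 96.8, 110, 104 and 107 CPM in the terminal libraries (log2 fold change 3.7, SE 0.73, edgeR adjusted p = 1.59e-04). NSG2, an endosomal protein of neurons, was at 0.785, 0.893 and 2.71 CPM in the stem libraries and 112, 134, 150.3 and 172 CPM in the terminal libraries, a 96.6-fold rise (log2 fold change 6.59, SE 0.81, edgeR adjusted p = 2.72e-07). DCX, the marker of migrating young neurons, was at 297, 506 and 1028 CPM in the stem libraries and 2240, 1997, 1713 and 2001 CPM in the terminal libraries (log2 fold change 1.7, SE 0.35, edgeR adjusted p = 2.91e-04). STMN2 and DCX differed little among the terminal days, whereas NSG2 was highest on day 20. RBFOX3, which encodes the NeuN antigen of mature neurons, stayed rare: it was at 0, 0.085 and 0.0821 CPM in the stem libraries and 0.464, 0.767, 1.61 and 4.21 CPM in the terminal libraries (log2 fold change 4.91, SE 0.87, edgeR adjusted p = 4.22e-05). MAP2 did not pass (log2 fold change 0.18, edgeR adjusted p = 0.119), and GAP43, the growth cone protein, was the gene that fell (edgeR adjusted p = 0.0467), a call lost without any 1 of the 7 libraries. EOMES, which marks intermediate progenitors, was at 3.39, 9.9 and 12 CPM in the stem libraries and 14.6, 10.1, 5.98 and 3.51 CPM in the terminal libraries and did not pass (edgeR adjusted p = 0.996). It was highest on day 7, at 16.4 CPM. NEUROG2, NHLH1 and ELAVL4 rose and HES6 fell among the 8 genes of that list.

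Genes of both GABAergic and glutamatergic neurons rose. Of 13 GABAergic lineage genes tested 8 rose and none fell, with a median of 1.4. SCGN (secretagogin), a calcium-binding protein of interneurons, was at 0, 0.553 and 4.19 CPM in the stem libraries and 129.7, 124, 106 and 104 CPM in the terminal libraries (log2 fold change 6.19, SE 0.94, edgeR adjusted p = 5.74e-06). CALB2 (calretinin), another, was at 1.16, 1.32 and 9.61 CPM in the stem libraries and 149, 147, 187 and 188 CPM in the terminal libraries (log2 fold change 5.38, SE 0.86, edgeR adjusted p = 1.24e-05), and SLC32A1, the vesicular transporter that loads GABA, was at 0.206, 0.85 and 6.94 CPM in the stem libraries and 25.2, 26.5, 30.7 and 37.4 CPM in the terminal libraries (log2 fold change 3.48, SE 0.82, edgeR adjusted p = 0.00108). In all of these day 5 was already above days 1 and 3. DLX2, a regulator of the lineage, and GAD1 and GAD2, which make GABA, did not pass. DLX2 was at 36.8, 111 and 219 CPM in the stem libraries and 260.5, 197, 219 and 182 CPM in the terminal libraries, GAD1 at 42.3, 74.4 and 122 CPM before and 166, 178, 141 and 98.5 CPM after, and GAD2 at 18, 54.9 and 107 CPM before and 142, 121, 98.9 and 79 CPM after the change of phase. For those, day 1 was the lowest of the 10 days and the terminal values lay near day 5. With day 5 left out, DLX2, GAD1 and GAD2 passed (edgeR adjusted p = 0.0182, 0.0412 and 0.0323).

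Of 14 glutamatergic lineage genes 10 rose and 2 fell (median 2.11), but several stayed rare. NEUROD2, a transcription factor of projection neurons, was at 0.0826, 0.17 and 0.0821 CPM in the stem libraries and 0.548, 2.01, 3.65 and 4.28 CPM in the terminal libraries (log2 fold change 4.53, SE 0.68, edgeR adjusted p = 7.66e-06). The vesicular glutamate transporter SLC17A6 had 3 counts in the stem libraries together and 142 in the terminal ones, a ratio of 31 after scaling for depth (95% counting interval 10.4 to 152, exact). For SLC17A7, with 3 and 5 counts, the ratio was 1.09 (0.212 to 7.03). The intervals cover counting error only. GRIN2B, the NMDA receptor subunit of immature synapses, was at 0.413, 0.383 and 0.575 CPM in the stem libraries and 0.927, 3.51, 4.91 and 17.2 CPM in the terminal libraries, and day 20 was 18.6-fold above day 11. Per length, in the deposited RPKM, the terminal mean of SLC32A1 was 11.9 ± 1.68 (SD, n = 4), against 0.291 ± 0.11 for SLC17A6 and 0.017 ± 0.0277 for SLC17A7.

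The machinery of synapses rose broadly. Of 21 genes of synaptic vesicles and release 18 rose and 1, VAMP1, fell (median 1.69), and of 19 adhesion and scaffold genes 12 rose and none fell (median 0.60). SYT4, a synaptotagmin of the secretory pathway, was at 0.206, 0.0425 and 0.246 CPM in the stem libraries and 3.88, 23.6, 65 and 129.6 CPM in the terminal libraries (log2 fold change 8.35, SE 1.25, edgeR adjusted p = 5.00e-06). SNAP25, the SNARE protein of release, was at 2.81, 2.68 and 3.82 CPM in the stem libraries and 21.1, 27, 26.9 and 32.8 CPM in the terminal libraries (log2 fold change 3.12, SE 0.41, edgeR adjusted p = 5.95e-07). LRFN2, a postsynaptic adhesion molecule, was at 0, 0.17 and 0.123 CPM in the stem libraries and 83.1, 81, 84.1 and 68.5 CPM in the terminal libraries (log2 fold change 9.61, SE 1.28, edgeR adjusted p = 9.96e-07). It was already at 25.7 CPM on day 8, against 1.63 CPM on day 7. CPLX2 (log2 fold change 3.62), RAB3A (3.06), SLITRK1 (3.21) and SHANK1 (3.73) also rose, with edgeR adjusted p between 9.01e-09 and 8.94e-04.

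Receptors and channels followed. Of 15 GABA and glycine receptor genes 11 rose and 1, GABRG3, fell, with a median of 1.81. GABRA2 was at 1.86, 2.25 and 6.16 CPM in the stem libraries and 52.6, 64.4, 62 and 70 CPM in the terminal libraries (log2 fold change 4.18, SE 0.38, edgeR adjusted p = 4.36e-09), and the GABA-B subunit GABBR2 rose 24.6-fold. Of 17 glutamate receptor genes 6 rose (35.3%, against 22.5% of all genes tested) and 2, GRIN2D and GRM7, fell (11.8%, against 20.7%). Among those 6, the metabotropic receptor GRM3 was at 0.124, 0.34 and 1.56 CPM in the stem libraries and 50.1, 73.4, 85.5 and 90.9 CPM in the terminal libraries (log2 fold change 6.78, SE 0.64, edgeR adjusted p = 7.82e-09). GRM4, a presynaptic receptor outside that list, had 2 counts in the stem libraries, and the terminal ones had 1070 times as many after scaling for depth (95% counting interval 296 to 8840). Of the list, the AMPA subunit GRIA2 and the kainate subunit GRIK3 had log2 fold changes of 1.7 and 2.67.

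Of 18 voltage-gated channel genes 10 rose (55.6%) and 3, SCN1A, KCNA1 and CACNA1A, fell (16.7%), against 22.5% and 20.7% of all genes tested. CACNA1C, the pore of an L-type calcium channel, was at 1.16, 2.63 and 2.18 CPM in the stem libraries and 35.1, 50.9, 77.6 and 97.6 CPM in the terminal libraries (log2 fold change 5.04, SE 0.43, edgeR adjusted p = 2.55e-09). CACNA1C was higher on each later day of the terminal phase. Of 11 chloride and cation transporter genes 4 rose (36.4%) and 5 fell (45.5%). Among those that rose, the chloride extruder SLC12A5 (KCC2), which makes GABA inhibitory in mature neurons, rose 6.37-fold to 1.56, 2.85, 4.4 and 3.96 CPM.

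Among the other large rises, MYT1L, a repressor of non-neuronal genes, was at 0.0413, 0.17 and 0.739 CPM in the stem libraries and 51.7, 54, 49.2 and 47.8 CPM in the terminal libraries (log2 fold change 7.29, SE 0.70, edgeR adjusted p = 1.02e-08). CPNE6, a calcium-dependent membrane-binding protein, was at 0.0826, 0.0425 and 0.0821 CPM in the stem libraries and 7.88, 26, 57.8 and 78.9 CPM in the terminal libraries (log2 fold change 9.18, SE 1.05, edgeR adjusted p = 1.02e-07). MYT1L was flat from day 11, while CPNE6 was higher on each later day. Of 17 genes of neuronal RNA binding and splicing, 12 rose and 2, PTBP1 and MSI1, fell. RBFOX1 (log2 fold change 3.56) and CELF4 (4.27) were among the 12. ACTL6B, the neuronal subunit of the BAF chromatin remodelling complex, was at 0.0413, 0.085 and 1.31 CPM in the stem libraries and 15.6, 21.4, 24.4 and 22.7 CPM in the terminal libraries (log2 fold change 5.43, SE 0.62, edgeR adjusted p = 1.03e-07). Among 19 chromatin genes 8 rose (42.1%) and 5 fell (26.3%), against 22.5% and 20.7% of all genes tested. ACTL6B and DPF3 (log2 fold change 1.95) were the largest rises. UHRF1, which maintains DNA methylation during replication, fell 2.93-fold.

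**Figure D3:**
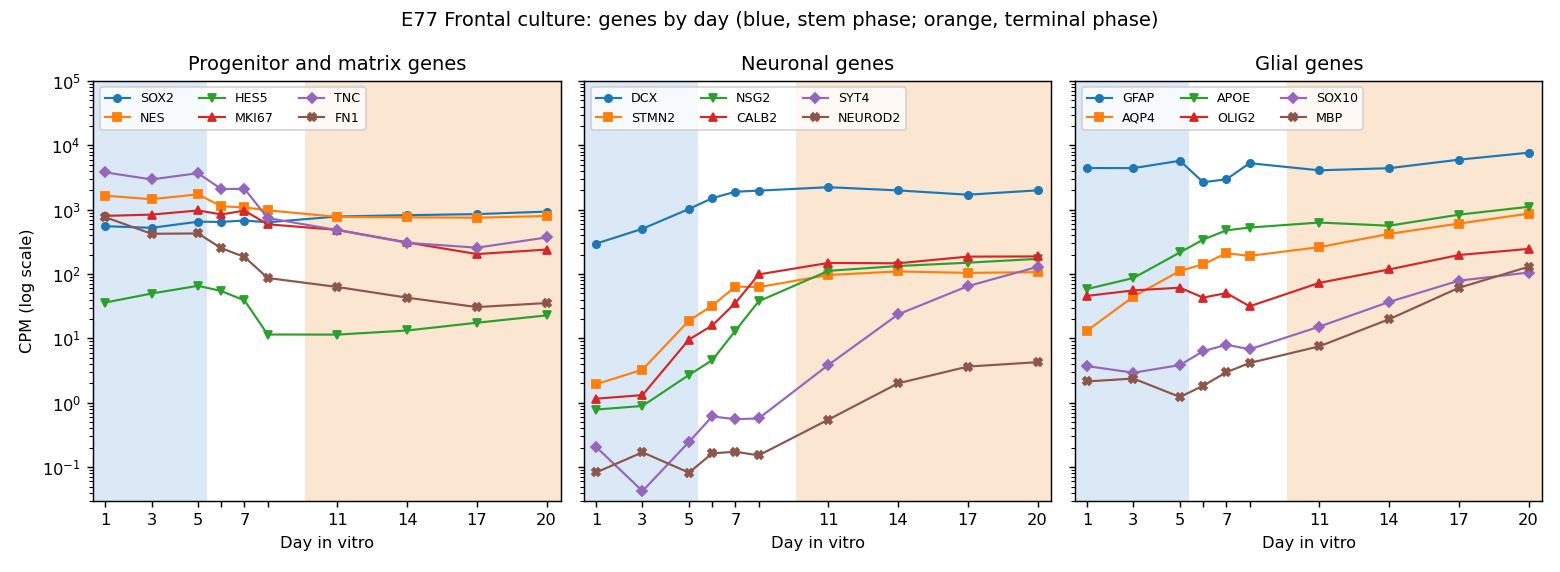
CPM of 18 genes on the 10 days of the E77 Frontal culture, on a log axis. Each point is 1 library. DCX, STMN2, NSG2 and CALB2 climb mostly before day 11, and NSG2 climbs further on each later day. SYT4, SOX10 and MBP climb on each day from 11 to 20.

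Glial genes mostly reached their highest levels on day 20, the last library, as did most genes of several neuronal lists. All 12 astrocyte genes and all 10 oligodendrocyte precursor genes had their highest value of the 10 days there. The share was 76.2% of synaptic vesicle, 73.3% of GABA and glycine receptor and 64.3% of pan-neuronal genes. It was 23.1% of GABAergic and 28.6% of glutamatergic lineage genes, and 19.6% of all genes tested, 4072 of 20794. Among astrocyte genes 8 rose and none fell (median 1.19), and 5 rose without day 1 or without day 20. AQP4, the water channel of astrocyte endfeet, was at 13.2, 44.7 and 112 CPM in the stem libraries and 262, 421, 609.7 and 869 CPM in the terminal libraries (log2 fold change 3.25, SE 0.68, edgeR adjusted p = 3.06e-04). APOE, the lipid carrier that astrocytes secrete, was at 58.6, 87 and 217 CPM in the stem libraries and 633, 564, 838 and 1111 CPM in the terminal libraries (log2 fold change 2.7, SE 0.49, edgeR adjusted p = 6.85e-05). Within the stem phase both were already highest on day 5. The glutamate transporter SLC1A2 rose 3.3-fold and the glycolytic enzyme ALDOC 3.57-fold. GFAP, the astrocyte filament that primate radial glia also express, was abundant from the start: it was at 4446, 4433 and 5772 CPM in the stem libraries and 4097, 4421, 5993 and 7695 CPM in the terminal libraries, with overlapping phases (log2 fold change 0.18, edgeR adjusted p = 0.532). S100B passed narrowly (edgeR adjusted p = 0.0429), and missed the threshold without day 1 (0.118), day 3 (0.13), day 17 (0.08) or day 20 (0.192).

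Genes of the oligodendrocyte lineage rose both in precursors and in maturing cells, with the largest values on the last days. Of 10 precursor genes 9 rose (median 1.7). The exception was PDGFRA, the receptor that marks precursors, at 322, 388 and 426 CPM in the stem libraries and 293, 363, 484 and 529.9 CPM in the terminal libraries (log2 fold change 0.14, edgeR adjusted p = 0.753). OLIG2, the lineage's transcription factor, was at 45.8, 55.8 and 61.4 CPM in the stem libraries and 73.1, 118, 198 and 246 CPM in the terminal libraries (log2 fold change 1.55, SE 0.38, edgeR adjusted p = 0.0017). SOX10, which acts downstream of it, was at 3.72, 2.93 and 3.86 CPM in the stem libraries and 15.3, 36.9, 79 and 106 CPM in the terminal libraries (log2 fold change 4.08, SE 0.66, edgeR adjusted p = 1.53e-05). NKX2-2 and GPR17, which mark precursors turning to differentiation, had log2 fold changes of 3.21 and 3.5. Within the terminal phase OLIG2, SOX10, NKX2-2 and GPR17 were each higher on each later day.

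Of 12 genes of maturing oligodendrocytes 8 rose and none fell (median 2.46). MBP, the myelin basic protein, was at 2.15, 2.38 and 1.23 CPM in the stem libraries and 7.54, 19.9, 61.2 and 129.9 CPM in the terminal libraries (log2 fold change 4.83, SE 0.87, edgeR adjusted p = 5.75e-05). BCAS1, expressed by newly myelinating cells, was at 5.21, 2.59 and 2.46 CPM in the stem libraries and 8.56, 21.9, 60.8 and 121 CPM in the terminal libraries (log2 fold change 3.96, SE 0.90, edgeR adjusted p = 7.76e-04), and CLDN11, a tight junction protein of myelin, was at 1.45, 1.49 and 1.31 CPM in the stem libraries and 3.67, 8.11, 22.7 and 46.3 CPM in the terminal libraries (log2 fold change 3.84, SE 0.85, edgeR adjusted p = 6.07e-04). On day 11 these 3 genes were within a few fold of the stem libraries, and on day 20 MBP was 17.2-fold above day 11.

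**Figure D4:**
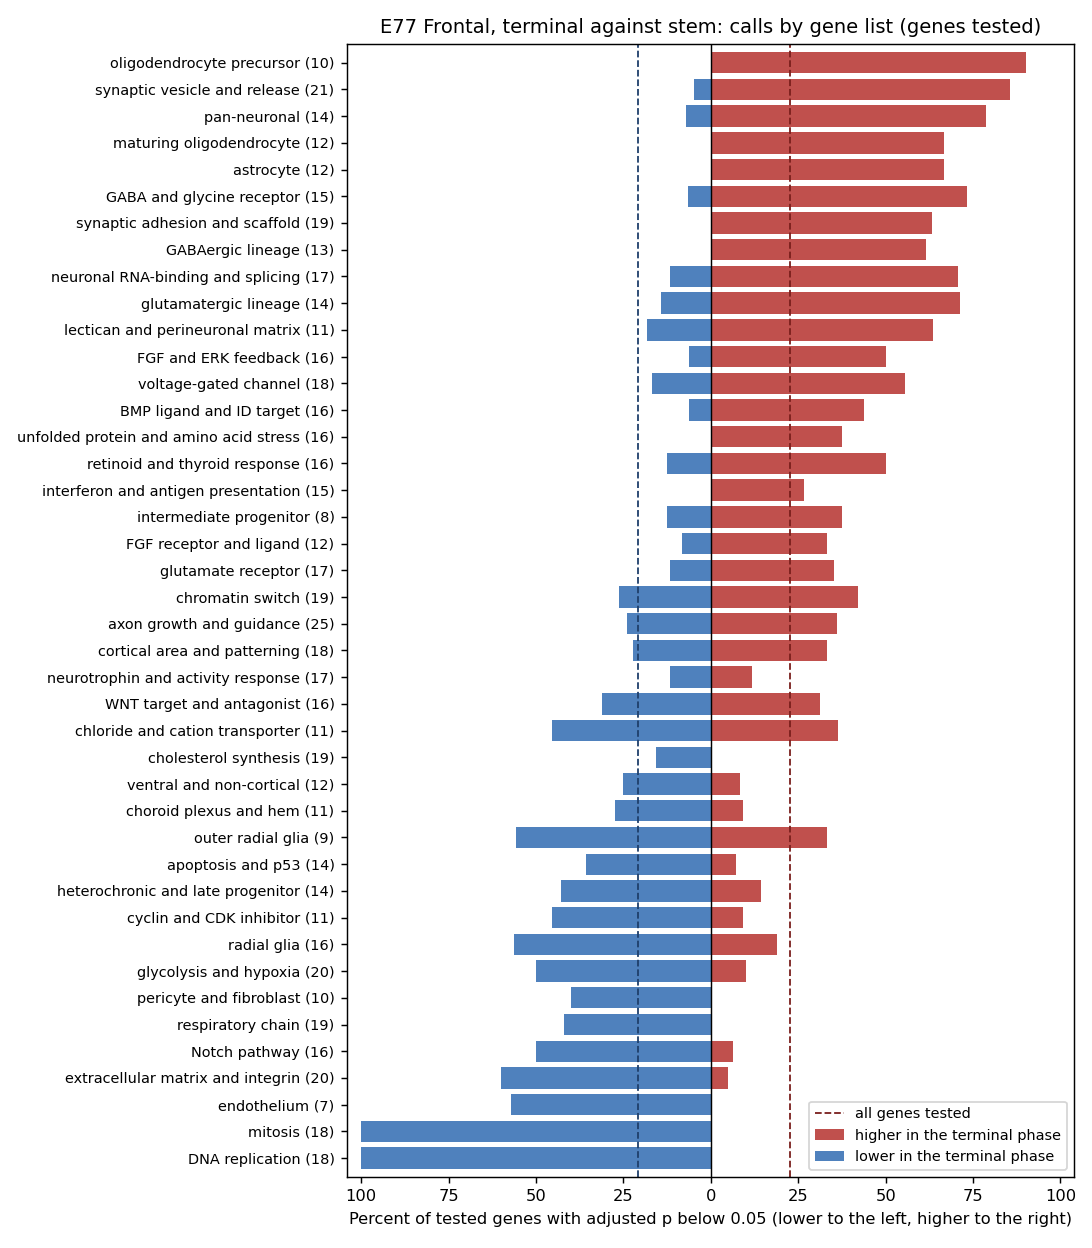
Percent of the tested genes of each list that were higher (right, red) or lower (left, blue) in the terminal phase, with the number tested in parentheses. Dashed lines mark the same shares over all 20794 genes, 22.5% higher and 20.7% lower. Replication and mitosis genes all fell, and oligodendrocyte precursor, synaptic vesicle and pan-neuronal lists have the largest shares that rose.

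The extracellular matrix changed its makeup. Of 20 matrix and integrin genes 12 fell and 1, LAMA1, rose with overlapping phases (edgeR adjusted p = 0.0493, a call lost without day 3, 5, 11 or 20). The list median was -0.67. FN1, fibronectin, was at 768, 423 and 428 CPM in the stem libraries and 63, 43, 30.7 and 35.5 CPM in the terminal libraries (log2 fold change -3.65, SE 0.38, edgeR adjusted p = 2.88e-08). COL6A2 and THBS1, a collagen chain and thrombospondin, had log2 fold changes of -3.11 and -2.41. In the matrix of neural tissue more genes rose than fell. Of 11 lectican and perineuronal genes 7 rose (63.6%) and 2, TNC and HAPLN4, fell (18.2%), against 22.5% and 20.7% of all genes tested. The summed level of the 11 genes overlapped between phases. It was 7451, 7154 and 9015 CPM in the stem libraries and 7190, 7072, 8396 and 11170 CPM in the terminal libraries. BCAN, the proteoglycan brevican, was at 145, 266 and 398 CPM in the stem libraries and 850.4, 1050, 1541 and 1860 CPM in the terminal libraries (log2 fold change 2.3, SE 0.26, edgeR adjusted p = 6.28e-08), and TNR, tenascin-R, was at 6.2, 8.29 and 15.4 CPM in the stem libraries and 51.8, 71, 134 and 226 CPM in the terminal libraries (log2 fold change 3.6, SE 0.43, edgeR adjusted p = 2.31e-07). TNC and TNR thus moved in opposite directions, each without overlap between phases.

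Genes of mesenchymal and vascular cells fell from low levels. COL1A1, the fibrillar collagen of fibroblasts, was at 55.2, 45.3 and 38.8 CPM in the stem libraries and 1.18, 0.913, 0.609 and 0.45 CPM in the terminal libraries, the largest fall among genes with at least 10 CPM in the stem phase (log2 fold change -5.91, SE 0.46, edgeR adjusted p = 5.05e-10). The summed level of the 10 pericyte and fibroblast genes was 187 to 245 CPM in the stem libraries and 71.9 to 76.9 CPM in the terminal libraries, and 4 of the 10 fell (COL1A1, COL1A2, COL3A1 and TAGLN). The 7 endothelial genes summed to 31.3 to 44.6 CPM and then 8.76 to 14.4 CPM, with 4 falls (PECAM1, CLDN5, FLT1 and KDR). FLT1 had 20 counts in the stem libraries and none in the terminal ones, at least 10.2-fold lower with 3 counts over the terminal phase as the floor. Its call was kept without 1 of the 7 libraries in turn, day 5, and was lost without any other (edgeR adjusted p up to 0.271). How far the fall of the matrix genes came with these cells was not tested. Other large falls included those of secreted factors and of a noncoding RNA. IGFBP3, a carrier of insulin-like growth factors, was at 204, 111 and 81.9 CPM in the stem libraries and 4.97, 6.83, 4.83 and 5.4 CPM in the terminal libraries, the axon repellent SLIT3 at 104, 44.3 and 27.2 CPM before and 3.2, 1.39, 0.895 and 1.13 CPM after, and H19, an imprinted noncoding RNA, at 92.3, 76.3 and 66.7 CPM before and 5.9, 3.58, 4.48 and 5.15 CPM after the change of phase. IGFBP3 and SLIT3 were highest on day 1. The neuropeptide precursors PENK and PNOC had log2 fold changes of -5.79 and -3.91, and the synaptic pentraxin NPTX2 was at 65.9, 45.1 and 43 CPM in the stem libraries and 1.01, 0.986, 2.15 and 1.51 CPM in the terminal libraries (log2 fold change -5.17, SE 0.61, edgeR adjusted p = 1.35e-07).

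Targets of FGF signalling did not fall together after FGF2 was withdrawn. Of 16 FGF and ERK feedback genes 8 rose (50%) and 1, ETV4, fell (6.25%), with a median of 0.79. ETV4 was at 61.6, 22.2 and 22.3 CPM in the stem libraries and 6.03, 5.77, 4.58 and 6.56 CPM in the terminal libraries (log2 fold change -2.62, SE 0.42, edgeR adjusted p = 1.30e-05), and its relative ETV1 at 233, 162 and 211 CPM in the stem libraries and 564, 635, 606 and 654 CPM in the terminal libraries (log2 fold change 1.61, SE 0.22, edgeR adjusted p = 8.62e-07). DUSP4, a phosphatase that ERK signalling induces, was at 12.3, 9.69 and 12.2 CPM in the stem libraries and 159, 259, 371 and 513 CPM in the terminal libraries, a 28.6-fold rise (log2 fold change 4.84, SE 0.57, edgeR adjusted p = 1.50e-07). DUSP4 was higher on each later day of the terminal phase. Among 12 receptors and ligands FGFR2, FGF9, FGF13 and FGF14 rose (33.3%, against 22.5% of all genes tested) and FGF5 fell (8.33%, against 20.7%).

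More BMP and retinoid genes rose than fell, while WNT genes were split. Of 16 WNT genes NKD2, LGR5, NOTUM, DKK3 and FRZB rose (31.2%) and LEF1, TCF7, RNF43, ZNRF3 and SFRP2 fell (31.2%). Among all genes tested 22.5% rose and 20.7% fell. Of 16 BMP genes 7 rose and 1, BMP7, fell (median 0.81). BMP4 was at 0.0826, 0.17 and 0.78 CPM in the stem libraries and 1.39, 2.77, 6.48 and 9.52 CPM in the terminal libraries (log2 fold change 3.86, SE 0.66, edgeR adjusted p = 2.67e-05), and the BMP target ID2 at 74.8, 61.3 and 73.7 CPM in the stem libraries and 149, 173, 226 and 242 CPM in the terminal libraries (log2 fold change 1.5, SE 0.25, edgeR adjusted p = 2.00e-05). ID1 rose as well (edgeR adjusted p = 0.0174), a call lost without day 3 (0.0504), day 5 (0.0527) or day 20 (0.0706). Of 16 retinoid and thyroid hormone genes 8 rose and 2, STRA6 and CRABP2, fell (median 1.11). RARB, a receptor that retinoic acid induces, was at 0.372, 0.17 and 0.0411 CPM in the stem libraries and 7.0, 9.97, 10.8 and 8.49 CPM in the terminal libraries (log2 fold change 5.52, SE 1.19, edgeR adjusted p = 4.27e-04). It was 0.104 CPM on day 7 and 6.59 CPM on day 8, the step at which LRFN2 also climbed.

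Genes that place cells within the forebrain changed in both directions, as genes did in general. Of 18 cortical area and patterning genes SP8, NR2F1, LMO3, ETV1, ZIC2 and MEIS2 rose (33.3%), and EMX1, EMX2, LHX2 and FOXP2 fell (22.2%). Among all genes tested 22.5% rose and 20.7% fell. MEIS2, a transcription factor of the developing forebrain, was at 211, 225 and 212 CPM in the stem libraries and 466, 530.3, 557 and 559 CPM in the terminal libraries (log2 fold change 1.29, SE 0.15, edgeR adjusted p = 1.05e-07). LMO3, a transcriptional cofactor, was at 11.2, 16.2 and 21.6 CPM in the stem libraries and 52.6, 48.5, 43.5 and 41.7 CPM in the terminal libraries (log2 fold change 1.51, SE 0.20, edgeR adjusted p = 4.44e-07), and FOXP2 was at 3.3, 7.35 and 8.54 CPM in the stem libraries and 4.13, 3.25, 1.5 and 1.13 CPM in the terminal libraries (log2 fold change -1.37, edgeR adjusted p = 0.0242). MEIS2 and LMO3 had no overlap between phases, and FOXP2 did, with a call that was kept without 3 of the 7 libraries in turn. Among 12 ventral and non-cortical genes 3 fell (25%), GSX2 and IRX3 among them. GSX2, a transcription factor of ventral forebrain progenitors, was at 24.9, 31.4 and 37.5 CPM in the stem libraries and 14.5, 9.31, 7.45 and 6.24 CPM in the terminal libraries (log2 fold change -1.74, SE 0.26, edgeR adjusted p = 3.80e-06). NKX2-1, which marks the medial ganglionic eminence, rose in the test, with 0 counts in the stem libraries and 6 in the terminal ones, at least 1.31-fold higher. Its call was kept without day 17 or day 20 and lost without each of the other 5 libraries (edgeR adjusted p up to 0.0898).

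Of 25 axon growth and guidance genes 9 rose (36%) and 6 fell (24%), against 22.5% and 20.7% of all genes tested. The falls were 3 without day 14. Among 14 heterochronic and late progenitor genes, whose levels change with developmental stage, LIN28A and ZEB2 rose (14.3%) and 6 fell (42.9%). ZEB2, a transcription factor of young neurons, was at 125, 166 and 231 CPM in the stem libraries and 462, 538, 519 and 582 CPM in the terminal libraries (log2 fold change 1.59, SE 0.18, edgeR adjusted p = 4.24e-08). The RNA-binding protein IGF2BP1 fell from low levels, 1.11, 0.765 and 0.411 CPM, with a log2 fold change of -2.65. LIN28A had 1 count in the stem libraries and the terminal ones 45.8 times as many after scaling for depth (95% counting interval 7.96 to 1840).

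Whether these changes were particular to the frontal culture was tested as the difference between its change and that of another culture. Against E77 Occipital, 132 genes (0.635%) had a change higher in Frontal and 185 (0.89%) a lower one.

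Some of the higher changes came with a low Frontal stem phase. SEZ6L, a neuronal membrane protein, had a difference of 2.62 on the log2 scale (SE 0.39, edgeR adjusted p = 4.00e-04), and SHISA6, an AMPA receptor partner, one of 3.08 on the log2 scale (SE 0.47, edgeR adjusted p = 4.65e-04). Occipital SEZ6L was at 724, 557 and 425 CPM and then 599, 646, 481 and 489.5 CPM, against 44.2, 48 and 102 CPM and then 411, 375, 363 and 397 CPM in Frontal. The terminal libraries of both regions were thus closer to each other than the stem libraries were. MEIS2 and LMO3, described above, had differences from Occipital of 1.17 on the log2 scale (SE 0.21, edgeR adjusted p = 0.00212) and 1.79 on the log2 scale (SE 0.27, edgeR adjusted p = 3.63e-04). These differences passed without each library in turn, 14 of 14 settings.

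Lower changes in Frontal took several forms. NPTX2 fell in Frontal, as above, and did not pass in Occipital, at 1.92, 0.665 and 0.0729 CPM and then 0.63, 1.96, 1.66 and 2.67 CPM, a difference of -6.17 on the log2 scale (SE 0.89, edgeR adjusted p = 2.90e-04). EFEMP1, a fibulin of the extracellular matrix, fell in Frontal and rose in Occipital. In Frontal it was at 53.1, 64.4 and 57.4 CPM in the stem libraries and 12.1, 18.7, 13.5 and 20.5 CPM in the terminal libraries (log2 fold change -1.85), and in Occipital at 0.508, 0.313 and 0.547 CPM and then 6.72, 8.16, 6.35 and 4.82 CPM (log2 fold change 3.82), a difference of -5.67 on the log2 scale (SE 0.77, edgeR adjusted p = 1.77e-04). Other genes rose in Occipital and rose less, or did not pass, in Frontal. CCND1 in Occipital was at 6.65, 3.01 and 4.3 CPM and then 50, 126, 184 and 268 CPM, a difference of -4.24 on the log2 scale (SE 0.78, edgeR adjusted p = 0.00294), and AGT, the angiotensinogen of astrocytes, was at 0.157, 1.02 and 1.86 CPM and then 20.9, 61.9, 77 and 137 CPM in Occipital and 1.32, 2.38 and 2.63 CPM in the stem libraries and 2.99, 3.94, 6.12 and 11.9 CPM in the terminal libraries in Frontal, a difference of -4.61 on the log2 scale (SE 0.78, edgeR adjusted p = 0.00136). The Frontal rise of AGT (edgeR adjusted p = 0.0193) was lost without day 1 (0.0927) or day 20 (0.12). These 4 differences passed without each library in turn. In a fit of only the groups compared, those of CCND1 (edgeR adjusted p = 0.054) and AGT (0.0595) did not pass. NKX2-2 also rose less in Frontal, a difference of -3.65 on the log2 scale (SE 0.85, edgeR adjusted p = 0.022), which passed in 10 of 14 such settings and was lost without Frontal day 1 or Occipital day 1, 3 or 20. It was also lost in a fit of only the E77 libraries (edgeR adjusted p = 0.105) and of only the groups compared (0.221). For MBP the difference, -4.0 on the log2 scale (SE 1.36, edgeR adjusted p = 0.161), did not pass, nor did that of SOX10 (edgeR adjusted p = 0.651).

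**Figure D5:**
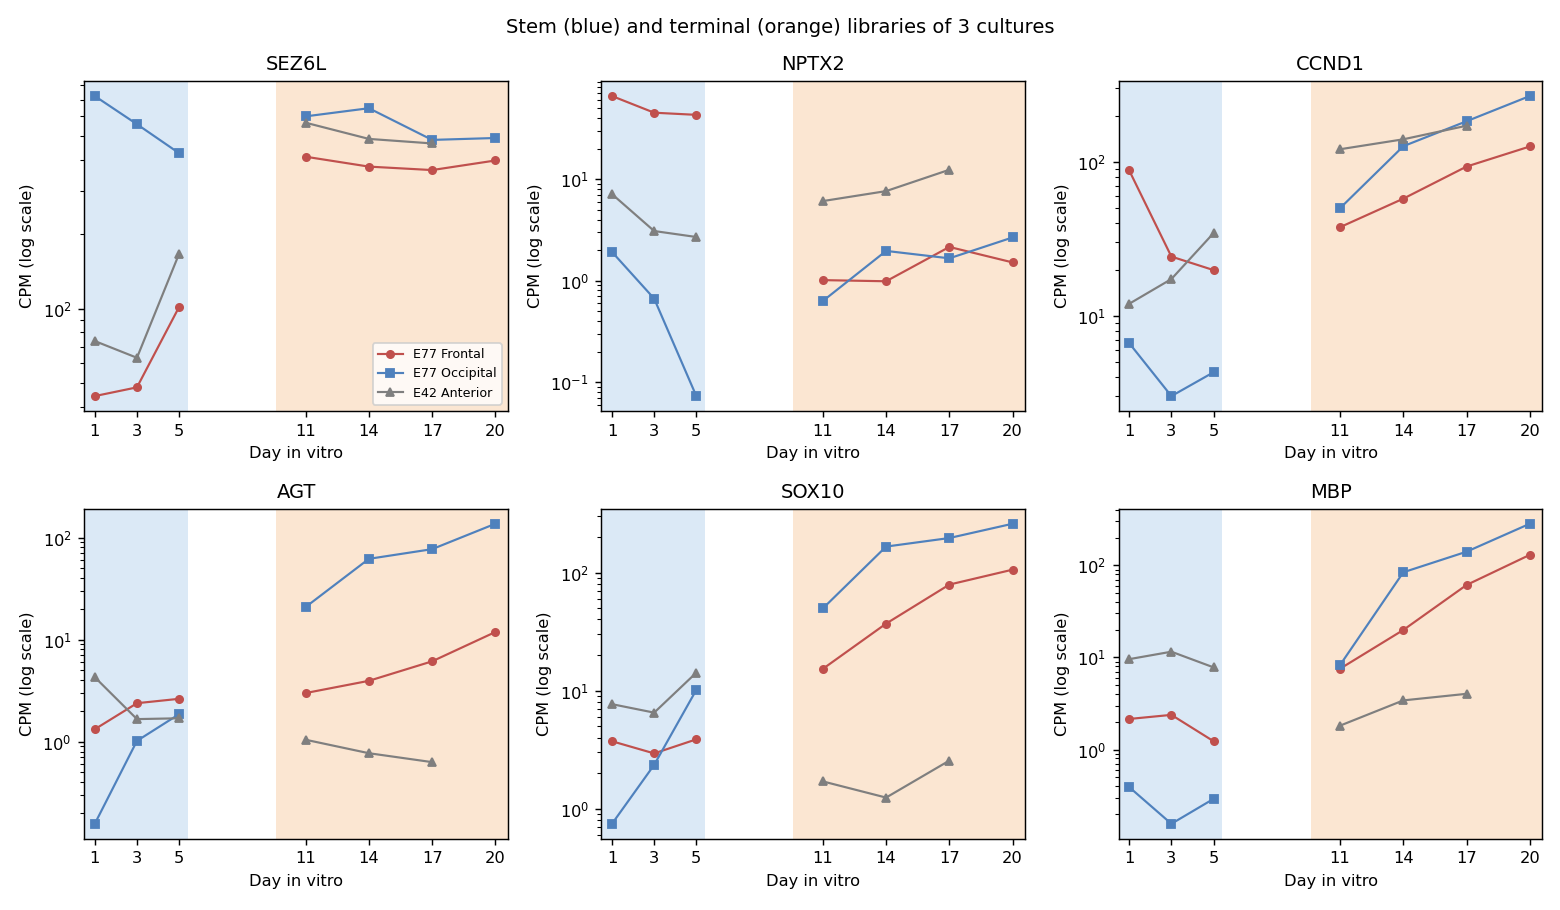
CPM of 6 genes in the stem and terminal libraries of E77 Frontal (red circles), E77 Occipital (blue squares) and E42 Anterior (grey triangles), 1 point per library, on log axes that differ between panels. SEZ6L is lower in the Frontal and Anterior stem libraries than in the Occipital ones, and NPTX2 is highest in the Frontal stem libraries. SOX10 and MBP climb in both E77 cultures and not in E42 Anterior.

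Against E42 Anterior, 1165 genes (5.6%) changed more upward in Frontal and 981 (4.72%) more downward. Mesenchymal markers set the cultures apart from the start: the pericyte and fibroblast genes summed to 22400 to 40000 CPM in the Anterior stem libraries and 16900 to 26700 CPM in the terminal ones, far above the Frontal sums. The part of this in the differences was not tested. Of the 10 oligodendrocyte precursor genes 7 were called, all higher in Frontal. SOX10 was at 7.67, 6.5 and 14.2 CPM and then 1.7, 1.24 and 2.55 CPM in E42 Anterior, a difference of 6.47 on the log2 scale (SE 0.94, edgeR adjusted p = 3.77e-05), and MBP was at 9.58, 11.5 and 7.8 CPM and then 1.82, 3.42 and 4.03 CPM, a difference of 6.47 on the log2 scale (SE 1.16, edgeR adjusted p = 5.08e-04). OLIG2, with 3.13 on the log2 scale (SE 0.57, edgeR adjusted p = 5.98e-04), and GPR17, with 6.08 on the log2 scale (SE 1.14, edgeR adjusted p = 7.57e-04), differed in the same direction. Without Frontal day 20, which Anterior lacks, the SOX10 and MBP differences were 6.04 and 5.58 (edgeR adjusted p = 0.000101 and 0.00133).

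Of the 12 astrocyte genes 4 were called, 3 of them higher in Frontal, against 5.6% higher and 4.72% lower among all genes tested. APOE and ALDOC rose in Frontal, with differences from Anterior of 3.87 on the log2 scale (SE 0.69, edgeR adjusted p = 4.59e-04) and 3.29 on the log2 scale (SE 0.48, edgeR adjusted p = 4.54e-05). SLC1A2 went the other way, with -1.73 on the log2 scale (edgeR adjusted p = 0.00457). ACAN, the lectican aggrecan, was at 1.24, 1.15 and 0.862 CPM in the stem libraries and 1.77, 3.54, 5.8 and 7.75 CPM in the terminal libraries in Frontal and at 400.1, 119 and 68.2 CPM and then 3.9, 2.4 and 2.36 CPM in Anterior, a difference of 8.22 on the log2 scale (SE 1.07, edgeR adjusted p = 1.02e-05). The sulfatase SULF1, at 0.826, 0.723 and 0.903 CPM in the stem libraries and 12.5, 18.4, 20.8 and 22.1 CPM in the terminal libraries in Frontal and 90.3, 86.6 and 26.9 CPM and then 13, 18.7 and 17 CPM in Anterior, gave 6.55 on the log2 scale (SE 0.79, edgeR adjusted p = 3.14e-06). Both genes fell in Anterior and rose in Frontal, the rise of ACAN with an edgeR adjusted p of 0.0247, a call lost without day 1 (0.0601), 3 (0.0645), 5 (0.0783) or 20 (0.0788). In the other direction, COL1A1 gave -5.08 on the log2 scale (SE 0.59, edgeR adjusted p = 2.18e-06), the surface antigen CD34 gave -6.09 on the log2 scale (SE 0.84, edgeR adjusted p = 2.03e-05), and ALDH1A3, an enzyme that makes retinoic acid, gave -5.46 on the log2 scale (SE 0.72, edgeR adjusted p = 1.12e-05). Anterior ALDH1A3 was at 3.1, 4.08 and 14.8 CPM and then 54.7, 68 and 76.4 CPM, a rise, and Frontal at 13.5, 3.83 and 2.55 CPM in the stem libraries and 1.85, 1.39, 1.61 and 0.643 CPM in the terminal libraries (edgeR adjusted p = 5.55e-04; 0.0568 without day 1). The differences given with a value in this paragraph passed without each library in turn, 13 of 13 settings.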

How the data were processed

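RNA-seq of macaque cortical cultures was analysed from a table of read counts per gene, which the authors deposited beside RPKM values of the same genes. Alignment used STAR and counting featureCounts, per the submitters' processing notes. Versions, the genome build and the strand setting of the counting are not given in the sources used here, so antisense and overlapping genes are uncertain. The library kit marks strand, per the labels' protocols.

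Counts of all 38 libraries were fitted together in edgeR 4.0.16 (R 4.3.3) as 12 groups of culture and phase, with 26 residual degrees of freedom. Genes were filtered by filterByExpr, which left 20794 of 34619, normalized by TMM, and tested by the robust quasi-likelihood test with trended dispersion and Benjamini-Hochberg adjustment over all genes tested. A gene passed at an adjusted p below 0.05. Differences between cultures are interaction contrasts of the same fit. CPM values use the TMM-scaled library size, and RPKM values were only used to compare levels between genes. Depth was 21324987 to 33001313 counts in the 7 libraries compared.

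Libraries of different cultures share a day in vitro by their labels, and whether they were handled in parallel is not given in the sources used here, so the reported fits use no pairing.

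Members and the 44 gene lists were chosen with earlier results of these data known. Genes with printed values came from the 12 largest rises and falls with at least 10 CPM in the higher phase and no overlap between phases, the 6 largest differences per direction from each other culture, up to 4 genes per list, and a set of cell type markers. GAP43, LAMA1 and the members named where a count was small were chosen after their values were seen. Some genes that met these rules are not reported here. A ratio with 3 or fewer counts in a phase is given with its exact counting interval, and one with none as a bound from a floor of 3 counts over the phase.

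Alternatives were DESeq2 1.42.0 size factors and its Wald test, no filter on low counts, fits on fewer libraries, the day as a block, and leaving out each library in turn. On simulated counts of the 20794 genes for the terminal against stem comparison, 200 genes were changed. The test recovered 18% of 1.5-fold, 76% of 2-fold, 96% of 4-fold and 100% of 8-fold changes. Of 153 calls, 8 were genes that had not been changed. The data gave 8975 calls, so the adjusted threshold was stricter on simulated counts, and these shares do not measure the recovery in the data.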

Additional observations from a re-analysis of the deposited data

Results flagged for a closer look

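Among the 116 genes with printed values, 2 had 1 of the 4 terminal libraries far from the other 3, with a gap to its nearest neighbour above the 95% limit of Dixon's test. CDKN1A was at 119.5 CPM on day 20, a gap of 0.908 of the range. UHRF1 was at 69.68 CPM on day 11, a gap of 0.896 of the range. Chance flags about 1 in 20 groups of libraries, more often than found here.

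The change from the stem to the terminal phase differed between E77 Frontal and E77 Occipital for 13 of these genes, by the interaction test of edgeR with adjusted p below 0.05. Higher in Frontal on the log2 scale were SHISA6 (3.08), SEZ6L (2.62), LMO3 (1.79), MEIS2 (1.17) and LAMA1 (0.94). Lower in Frontal were NPTX2 (-6.17), EFEMP1 (-5.67), AGT (-4.61), CCND1 (-4.24), H19 (-3.74), NKX2-2 (-3.65), FN1 (-2.06) and NES (-0.94). Without 1 library in turn, the difference was lost in at least 1 setting for NES, NKX2-2 and FN1. For the other genes except LAMA1, whose difference was not refitted, it was kept without each library. A fit of only the groups compared lost it for AGT, CCND1, NES and NKX2-2, and no filter on low counts for FN1 and NES. A fit of only the E77 libraries lost it for FN1 and NKX2-2. 

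The change from the stem to the terminal phase differed between E77 Frontal and E42 Anterior for 44 of these genes, by the interaction test of edgeR with adjusted p below 0.05. Higher in Frontal on the log2 scale were ACAN (8.22), SULF1 (6.55), SOX10 (6.47), MBP (6.47), GPR17 (6.08), BCAS1 (5.78), BMP4 (5.14), SYT4 (4.94), CPNE6 (4.58), NKX2-2 (4.04), MYT1L (4.01), APOE (3.87), CHAC1 (3.52), SHANK1 (3.33), ALDOC (3.29), AGT (3.21), OLIG2 (3.13), CACNA1C (3.08), GRM3 (3.04), ACTL6B (2.69), HEYL (2.67), DDIT3 (1.93), GABRA2 (1.9), BCAN (1.49), SLITRK1 (1.45), ID4 (1.14), B2M (0.97) and ZEB2 (0.83). Lower in Frontal were NPTX2 (-6.19), CD34 (-6.09), ALDH1A3 (-5.46), COL1A1 (-5.08), PENK (-4.46), IGFBP3 (-3.15), H19 (-3.12), SLIT3 (-2.6), FN1 (-2.26), PNOC (-2.25), SLC1A2 (-1.73), COL6A2 (-1.7), DPF3 (-1.58), GLI3 (-1.49), PAX6 (-0.84) and LAMA1 (-0.72). Without 1 library in turn, the difference was lost in at least 1 setting for CPNE6, ID4, HEYL, SYT4, SLITRK1, ACTL6B, BCAS1, IGFBP3, SLIT3, PNOC, ZEB2 and AGT. For the other genes except LAMA1, whose difference was not refitted, it was kept without each library. A fit of only the groups compared lost it for ACTL6B, BCAN, CPNE6, GABRA2, SYT4 and ZEB2, and no filter on low counts for CPNE6, IGFBP3, SLIT3 and SYT4.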

How the results depend on the processing

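The counts of the terminal against stem comparison stayed within 1.5 times the reported 4673 and 4302 in each alternative, from 3785 to 4751 higher and 3336 to 4555 lower genes over all of them, and from 3940 to 4751 and 3336 to 4505 without 1 library in turn. Counts of differences between cultures moved more. The labels give same-day libraries of the cultures a day in common and nothing on parallel handling. Their deviations from the group means correlated above 0.1 in 6 of 7 pairs with Occipital (-0.0961 to 0.685) and 4 of 6 with Anterior (-0.0522 to 0.224). Of the Frontal libraries, 6 of 7 correlated best with their own day in Occipital and 4 of 6 in Anterior. The source of this shared variation was not tested. With the day as a replicate block the counts were 561 higher and 611 lower against Occipital, with all 317 calls kept, and 2164 and 1824 against Anterior, with 2127 of 2146 kept. With that block the difference of MBP from Occipital passed (edgeR adjusted p = 0.00755). Against Occipital, DESeq2's Wald test gave 248 higher and 339 lower, no filter on low counts 74 higher, a fit of only the E77 libraries 83 higher, and a fit of only the groups compared 43 higher and 107 lower. Without 1 library in turn, differences from Occipital ranged from 59 to 212 higher and 81 to 288 lower, and from Anterior from 689 to 1543 higher and 605 to 1634 lower. For higher against Occipital the count passed 1.5 times without Frontal day 1 (59), 3 (60) or 17 (85) or Occipital day 3 (67), 11 (212), 17 (66) or 20 (71). For lower it did so without Frontal day 1 (98), 3 (102) or 14 (115) or Occipital day 3 (81), 11 (288), 17 (116) or 20 (101). Against Anterior it did so for higher without Frontal day 3 (689), and for lower without Frontal day 1 (605), 3 (649), 11 (1634) or 17 (622) or Anterior day 3 (607). The cause was not tested. No change past the threshold reversed its direction, while GFAP, SLC17A7 and EOMES, which did not pass, changed sign without 1 library. Of other genes picked by the selection rules and named as called, NHLH1 (edgeR adjusted p up to 0.0615), CDKN2C (0.106), STRA6 (0.271) and FOSB (0.114) were lost without 1 or more single libraries. The calls of members outside those rules, such as JAG2, LIFR and VAMP1, are not covered here. For single genes in terminal against stem, 2416 of the values under an alternative kept their call, 105 lost it and 9 gained it. For single-gene differences 1607 kept and 203 lost it. A fit of only the E77 libraries could not give a comparison with E42 Anterior. Depth limits genes below about 1 CPM, where 1 library can decide a value. On simulated counts with 200 changed genes, 1.5-fold changes were mostly missed, which does not give the share missed in the data.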

Other observations

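In the metabolic lists more genes fell than rose, but the list means were back at stem levels on day 20. The mean log2 CPM of glycolysis and hypoxia genes was lowest on day 11 (5.494) and 5.991 on day 20. That of respiratory chain genes was lowest on day 6 (5.803) and 6.294 on day 20. For cholesterol synthesis genes it was lowest on day 7 (5.574) and 6.803 on day 20. The lowest stem libraries of these lists were at 5.932, 6.022 and 6.425. Of 20 glycolysis and hypoxia genes 10 fell and BNIP3 and EGLN3 rose, against 20.7% lower and 22.5% higher among all genes tested, and the falls were 5 without day 1. TPI1, a glycolytic enzyme, was at 262, 240.5 and 288 CPM in the stem libraries and 147, 128, 156 and 184 CPM in the terminal libraries (log2 fold change -0.78, SE 0.14, edgeR adjusted p = 3.54e-05), with its drop between day 5 and day 6 (149 CPM). EGLN3, an oxygen sensor, was at 6.61, 6.93 and 8.09 CPM in the stem libraries and 8.39, 13.9, 19.8 and 29.4 CPM in the terminal libraries (log2 fold change 1.31, SE 0.32, edgeR adjusted p = 0.00127), so that only days 14, 17 and 20 stood well above the stem libraries. Of 19 respiratory chain genes 8 fell and none rose, and the falls were 4 without day 1 and 5 without day 11. Their size was small: NDUFS1, a subunit of complex I, had a log2 fold change of -0.49 (edgeR adjusted p = 4.69e-04). Of 19 cholesterol synthesis genes 3 fell, PMVK and FDPS among them, and none rose, a share below that of all genes tested. FDPS, which makes farnesyl diphosphate, was at 175, 121 and 143 CPM in the stem libraries and 57.2, 76.2, 70.5 and 97.5 CPM in the terminal libraries (log2 fold change -0.96, SE 0.26, edgeR adjusted p = 0.00344).

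Among stress lists, 6 of 16 genes of the unfolded protein and amino acid response rose and none fell, and the rises were 2 without day 3 or without day 20. DDIT3, the transcription factor CHOP, was at 3.14, 2.81 and 2.83 CPM in the stem libraries and 5.9, 12.4, 8.99 and 8.23 CPM in the terminal libraries (log2 fold change 1.6, SE 0.29, edgeR adjusted p = 5.82e-05). CHAC1, its downstream enzyme of glutathione breakdown, was at 0.702, 0.935 and 0.821 CPM in the stem libraries and 2.15, 6.68, 3.4 and 5.12 CPM in the terminal libraries, and DDIT3 and CHAC1 were highest on day 14. Of 15 interferon and antigen presentation genes IFIT1, IFIT3, ISG15 and B2M rose, a share near that of all genes tested. The call of IFIT1 was kept without 5 and that of IFIT3 without 3 of the 7 libraries in turn (edgeR adjusted p up to 0.11 and 0.107). B2M, the light chain of MHC class I, was at 100.3, 109 and 119 CPM in the stem libraries and 183, 236, 262 and 326 CPM in the terminal libraries (log2 fold change 1.2, SE 0.15, edgeR adjusted p = 3.13e-07), higher on each later day. Of 14 apoptosis and p53 genes MDM2, CDKN1A, BAX, PMAIP1 and FAS fell and 1 rose, and the falls were 3 without day 1. BAX, which opens the mitochondrial outer membrane in apoptosis, was at 82.9, 57 and 64.3 CPM in the stem libraries and 32, 28, 34.7 and 39 CPM in the terminal libraries (log2 fold change -1.02, SE 0.19, edgeR adjusted p = 5.84e-05). Of 17 neurotrophin and activity genes HOMER1 and DUSP1 rose and FOSB and ARC fell, below the share of all genes tested in both directions. ARC, an immediate early gene of active neurons, was at 15.7, 19.2 and 18.7 CPM in the stem libraries and 7.08, 7.71, 8.38 and 10 CPM in the terminal libraries, and without 5 of the 7 libraries in turn its fall did not pass.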
